A study of Mus musculus with 6 samples.

Results

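A set of 10 genes that mark macrophages and early immune cells, namely Csf1r, Aif1, Cd68, Spi1, Tyrobp, Fcer1g, Ptprc, Mrc1, Lyz2 and Cx3cr1, was followed in RNA-seq data from whole mouse embryos at E9.5. The genes were chosen as known markers of these cells, and each was looked up by its symbol among the 24207 entries of the expression table. Of the 10 symbols, 9 were found as written, and Spi1 was found under its older symbol Sfpi1, so that all 10 genes were measured. The embryos were 3 Smchd1+/+ and 3 Smchd1MommeD1/MommeD1 males, each labelled E9.5 and of background strain C57Bl6/J x FVB/n, whereas the study's text names a backcross to another inbred background for these embryos. MommeD1 is a chemically induced nonsense allele of Smchd1, a gene for a chromatin protein of the SMC family, and homozygous embryos carry it in every cell. Whole embryos were frozen after dissection. The study's text describes genotyping from yolk sacs for its E9.5 microarray embryos.

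Macrophages appear in the mouse embryo before blood stem cells do. They arise from progenitors in the yolk sac, enter the embryo with the first circulation and settle in its tissues, where some become the microglia of the brain. Their identity depends on the transcription factor PU.1, which is encoded by Spi1, and on the receptor for colony stimulating factor 1, which is encoded by Csf1r. At E9.5 such cells are rare in the embryo, and a whole-embryo library holds their RNA diluted in that of all other cells. In such bulk samples, more cells of a type and more RNA per cell cannot be told apart.

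The table gives a single value for each genotype, pooled over its 3 embryos, in FPKM, which is the number of reads per kilobase of transcript scaled to the depth of the library, so that levels of different genes can be compared per length. Values of single embryos were not analysed here, and therefore no test across embryos could be made and no spread between embryos is given. Differences are stated as the log2 ratio of the mutant to the wildtype value after 0.1 FPKM was added to each, and, where both values were above 0, also as the plain fold. The genotype labels were checked with Smchd1 itself, which stood at 2.12 FPKM in mutant embryos and at 34.0 FPKM in wildtype embryos, or 6.23% of the wildtype level.

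All 10 genes had a higher value in Smchd1MommeD1/MommeD1 than in Smchd1+/+ embryos, and 9 of the 10 lay below a mean of 1 FPKM. The values ran from 0.0964 to 1.12 FPKM in mutant embryos, with a median of 0.405 FPKM, and from 0 to 1.04 FPKM in wildtype embryos, with a median of 0.136 FPKM. The differences were widest for the adaptor genes Fcer1g and Tyrobp and for the chemokine receptor gene Cx3cr1. They were narrowest for Cd68, Mrc1 and Aif1. The median log2 ratio over the 10 genes was 0.99.

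**Figure D1:**
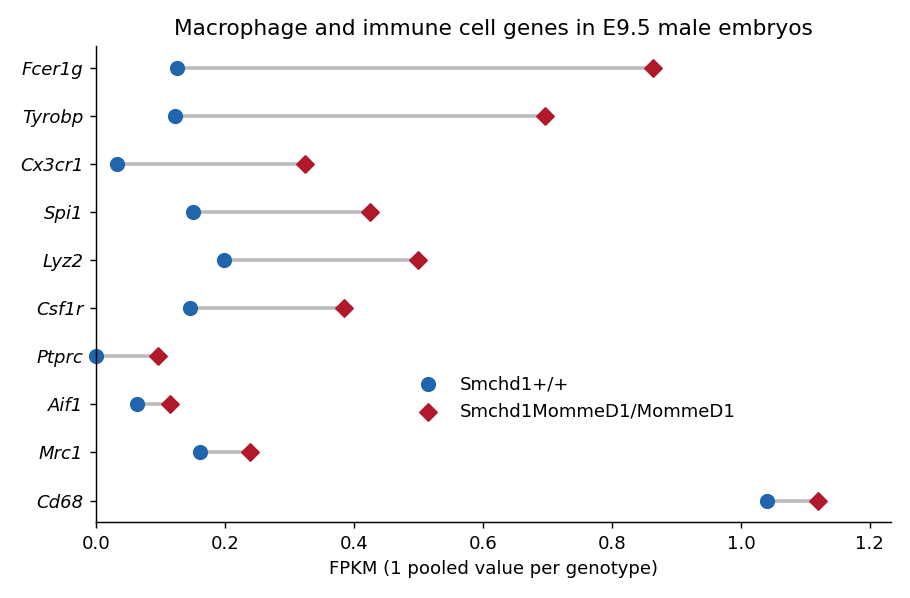
Pooled FPKM of each of the 10 genes (horizontal axis, linear) in Smchd1+/+ (circles) and Smchd1MommeD1/MommeD1 embryos (diamonds), in order of the log2 ratio. Every diamond lies to the right of its circle, from Fcer1g with 0.126 and 0.863 FPKM down to Cd68 with 1.04 and 1.12 FPKM.

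Csf1r, the receptor through which macrophages receive their survival signal, stood at 0.385 FPKM in the mutant pool and 0.145 FPKM in the wildtype pool, a 2.65-fold difference and a log2 ratio of 0.98. Its entry covers chr18:61105572-61131139 of mm10. The signals for this receptor are Csf1 and Il34, of which Csf1 is made by many cell types. Csf1 was at 1.97 and 1.71 FPKM in mutant and wildtype embryos, with a log2 ratio of 0.19. Il34 was at 0.0199 FPKM in mutant embryos and listed at 0 in wildtype embryos. The ratio at the measurable ligand was smaller than that at the receptor, a difference that could not be tested.

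Cx3cr1, the receptor for fractalkine and an early marker of macrophage precursors and microglia, stood at 0.324 FPKM in mutant embryos against 0.0324 FPKM in the wildtype. This was a 10-fold difference, the widest of the 9 genes with both values above 0, and its log2 ratio was 1.68. The entry covers chr9:120048693-120068282. Its ligand gene Cx3cl1 was at 3.92 and 3.52 FPKM, a log2 ratio of 0.15. Here too the ligand was near its wildtype value while its receptor was not.

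Fcer1g and Tyrobp encode small transmembrane adaptors that carry an ITAM, the short tyrosine motif by which many immune receptors signal. Fcer1g, the common gamma chain of Fc receptors, stood at 0.863 FPKM in mutant embryos against 0.126 FPKM in the wildtype, which is 6.83-fold and a log2 ratio of 2.09. Tyrobp, also called DAP12 and the partner of Trem2, was at 0.697 and 0.122 FPKM, which is 5.72-fold and a log2 ratio of 1.85. Their entries cover chr1:171229572-171234349 and chr7:30413788-30417579. Both adaptors had the highest mutant values of the 10 genes after Cd68, while in wildtype embryos they stood below Csf1r, Spi1, Mrc1 and Lyz2. Their wildtype rank rests on few reads, as estimated below.

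Spi1, the gene of PU.1, stood at 0.425 FPKM in mutant embryos against 0.150 FPKM in the wildtype, 2.84-fold and a log2 ratio of 1.07 (entry at chr2:91096797-91115756). Lyz2, the lysozyme gene of myeloid cells, was at 0.500 and 0.199 FPKM, 2.51-fold and a log2 ratio of 1.0 (chr10:117277541-117282272). Lyz2 has a close paralogue beside it, Lyz1, and reads shared between the pair could have been assigned to either. Lyz1 was at 0.0605 and 0.02 FPKM, so that the level of the pair was mostly that of Lyz2.

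Ptprc encodes CD45, the phosphatase found on the surface of nearly all white blood cells, and its entry covers chr1:138062861-138175305. It was at 0.0964 FPKM in mutant embryos and was listed at 0 in wildtype embryos, so no fold is given. Its log2 ratio of 0.97 depends on the amount added. It had the lowest mutant and the lowest wildtype value of the 10 genes.

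The remaining genes differed less. Mrc1, the mannose receptor of tissue macrophages, stood at 0.239 FPKM in mutant embryos against 0.162 FPKM in the wildtype, 1.47-fold and a log2 ratio of 0.37 (chr2:14229414-14332023, an interval that also holds Mir511). Mrc1 is also made by some endothelial cells. Aif1, which encodes the microglial protein IBA1, was at 0.114 and 0.0635 FPKM, 1.80-fold and a log2 ratio of 0.39 (chr17:35170992-35176001). Cd68, a lysosomal membrane protein that is abundant in macrophages and present at low level elsewhere, was at 1.12 and 1.04 FPKM, 1.08-fold and a log2 ratio of 0.10 (chr11:69664236-69666062). Cd68 was the most abundant of the 10 genes in both genotypes and the one that differed least. In GENCODE M21 no exon of another protein-coding gene lies within the table's interval for any of the 10 genes, Csf1r and Cx3cr1 included.

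Low FPKM values scatter more than high ones, so the genes were set beside all entries of like level. Among the 12463 entries with a mean of at least 1 FPKM, 3.51% were higher and 1.47% lower in mutant embryos by at least 1.5-fold, and the median log2 ratio was -0.01. Cd68 was the only gene of the 10 in this range and was not past 1.5-fold. With no filter on level, 7 of the 10 genes were past 1.5-fold higher and 0 lower, against 6.35% higher and 3.01% lower of the 19552 entries above 0 in either genotype. With 1 FPKM added in place of 0.1, the count fell to 2, Tyrobp and Fcer1g. The 7 were Csf1r, Spi1, Tyrobp, Fcer1g, Ptprc, Lyz2 and Cx3cr1. In the range that holds the other 9 genes, a mean of 0.03 to 1 FPKM, 15.3% of 5122 entries were past 1.5-fold higher, 7.67% were past 1.5-fold lower and 57.8% had a mutant value above the wildtype value, with a median log2 ratio of 0.08. All 9 genes in this range had the higher value in mutant embryos. The ratios of Fcer1g, Tyrobp and Cx3cr1 were larger than those of 99.7%, 99.5% and 99.2% of these entries, and the ratio of Mrc1 was larger than that of 73.8%. The 10 genes were named with earlier results of these data known, so these shares describe where they stood and test nothing.

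**Figure D2:**
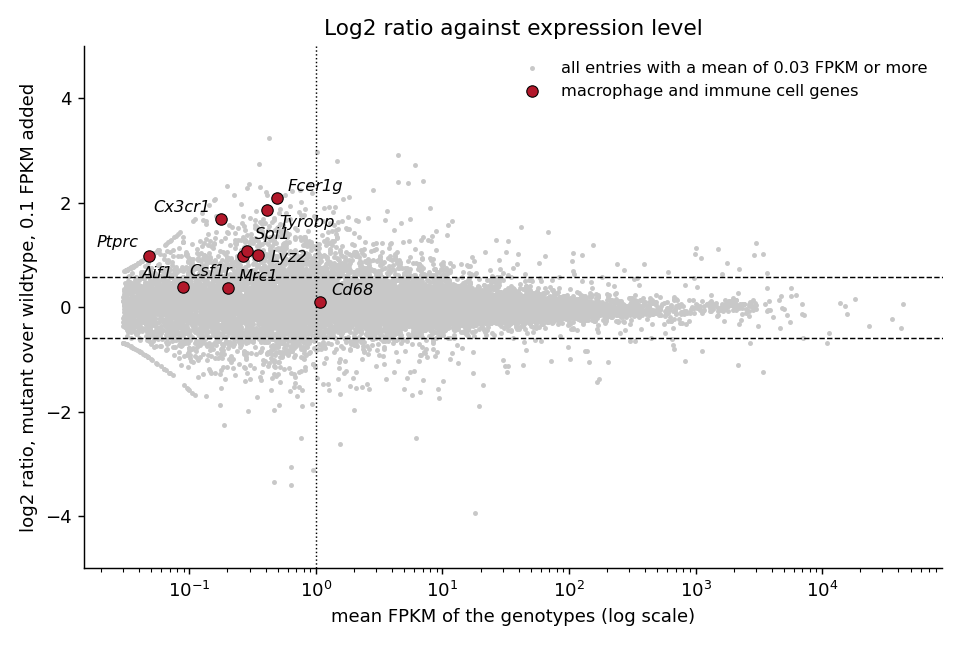
Log2 ratio of mutant to wildtype FPKM with 0.1 FPKM added (vertical axis) against the mean FPKM of the genotypes (log axis), for all entries with a mean of at least 0.03 FPKM (grey) and the 10 genes (red). Dashed lines mark a fold of 1.5 and the dotted line a mean of 1 FPKM. The scatter widens towards low levels, and 7 red points lie above the upper dashed line, all left of the dotted line.

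The values are low enough that single reads can be seen in them. For genes with 1 annotated transcript, FPKM was multiplied by the transcript length less 200 bp, in kb, which gives depth-scaled reads (RPM), and the lowest products fell on steps. In mutant embryos the first step lay at 0.0153 RPM, and 258 of the 305 lowest values lay around it. In wildtype embryos there were 3 first steps, at 0.0131, 0.0169 and 0.0212 RPM. On this scale 1 read was worth 0.0153 RPM in mutant and on average 0.0164 RPM in wildtype embryos, so the depth behind the genotypes was similar. The numbers of reads below were estimated from these steps and from the median annotated transcript length. They are approximate, and their 95% intervals (exact Poisson) cover counting error only and not the spread between embryos.

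**Figure D3:**
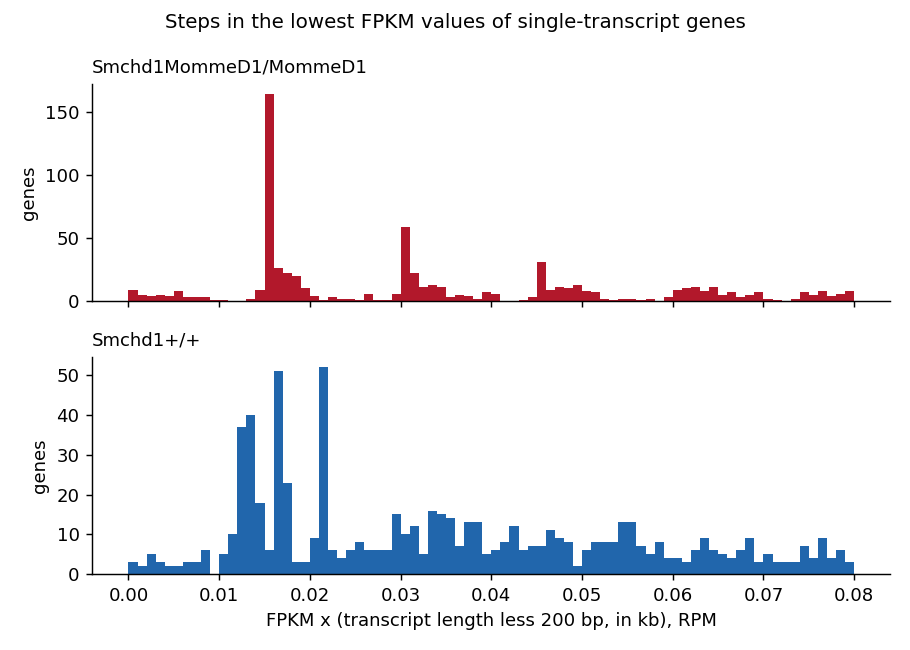
Number of single-transcript genes (vertical axis) by FPKM multiplied by transcript length less 200 bp, in kb (horizontal axis, RPM), for each genotype. The mutant values pile up at 0.0153 and its multiples, whereas the wildtype values show peaks at 0.0131, 0.0169 and 0.0212.

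Estimated this way, the 10 genes together rested on about 492 reads in mutant and 192 reads in wildtype embryos. Csf1r had about 103 reads in mutant embryos (interval 84 to 125) and 36 in wildtype embryos (25 to 50). Cx3cr1 had about 75 (59 to 94) and 7.0 (2.8 to 14). Fcer1g had about 27 (18 to 39) and 3.7 (1.1 to 10), since its transcript is short and few reads give a high FPKM. Tyrobp, the shortest of the 10 transcripts, had about 17 (9.9 to 27) and 2.7 (0.6 to 8.8). The widest ratios of the adaptors thus rested on the fewest wildtype reads, apart from those of Aif1 and Ptprc.

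Spi1 had about 51 reads in mutant (38 to 67) and 17 in wildtype embryos (9.9 to 27), and Lyz2 about 37 (26 to 51) and 14 (7.7 to 23). Ptprc, with its long transcript, had about 28 reads in mutant embryos (19 to 40) at the lowest FPKM of the 10. Mrc1 had about 81 (64 to 101) and 51 (38 to 67), Cd68 about 68 (53 to 86) and 58 (44 to 75), and Aif1 about 4.9 (1.6 to 12) and 2.5 (0.6 to 8.8). Among the genes with reads in both genotypes, the intervals of Csf1r, Spi1, Tyrobp, Fcer1g, Lyz2 and Cx3cr1 stood apart. Those of Aif1, Cd68 and Mrc1 overlapped, which does not show that these genes were alike in the genotypes. The share of all entries of like level with intervals apart was not computed, so the number of such genes has no background here.

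**Figure D4:**
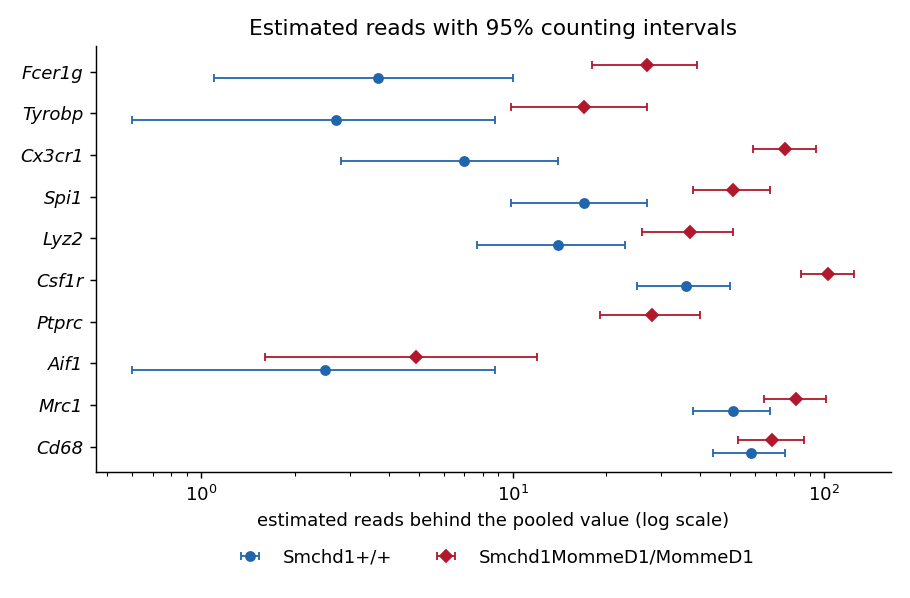
Estimated number of reads behind each pooled value (log axis) with 95% counting intervals, for Smchd1+/+ (circles) and Smchd1MommeD1/MommeD1 embryos (diamonds). Ptprc has no wildtype point because it was listed at 0. The intervals of Fcer1g (18 to 39 and 1.1 to 10) stand apart and those of Cd68 (53 to 86 and 44 to 75) overlap.

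To see which promoter letters the genes share, the RefSeq promoters of GRCm38.p6 (250 bases before to 50 after each start) were searched on both strands for 3 short motifs of known myeloid regulators. The table holds 8 promoters of 7 of the genes, and none was found for Csf1r, Spi1 and Tyrobp. GAGGAA, the core read by PU.1 and other ETS factors, was present in 4 of the 8 promoters, 1 each of Aif1, Cd68, Mrc1 and Ptprc, and in 28.3% of all 32851 promoters. TGTGGT, the RUNX core, was present in 3 of the 8, for Cx3cr1, Fcer1g and Lyz2, and in 16.8% of all promoters. The match of Fcer1g did not lie within the 250 bases before the start. TTGCNNAA, a C/EBP motif, was present for 1 gene (Cd68) and in 10.8% of all promoters. The 4 genes with GAGGAA were Ptprc and the 3 with the smallest ratios of the set, and the 3 with TGTGGT were without GAGGAA, an arrangement that is described here and was not tested. The 250 bases before the start of 4 genes are shown 5′ to 3′ in the sense of the gene, with the motif matches in capitals, for Cx3cr1 with a wide difference, Lyz2 with a middle one, Ptprc listed at 0 in wildtype embryos, and Cd68 with almost none.
Cx3cr1, chr9:120068297-120068546, minus strand: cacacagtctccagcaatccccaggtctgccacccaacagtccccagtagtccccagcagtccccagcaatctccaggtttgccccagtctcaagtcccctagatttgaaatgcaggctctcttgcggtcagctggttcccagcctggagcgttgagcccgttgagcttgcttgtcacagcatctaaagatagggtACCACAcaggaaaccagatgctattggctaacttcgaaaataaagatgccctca
Lyz2, chr10:117282273-117282522, minus strand: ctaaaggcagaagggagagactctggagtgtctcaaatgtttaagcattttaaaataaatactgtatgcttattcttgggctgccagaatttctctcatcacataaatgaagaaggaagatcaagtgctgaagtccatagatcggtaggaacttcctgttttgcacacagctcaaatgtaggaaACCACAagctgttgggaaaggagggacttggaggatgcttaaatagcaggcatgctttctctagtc
Ptprc, chr1:138175306-138175555, minus strand: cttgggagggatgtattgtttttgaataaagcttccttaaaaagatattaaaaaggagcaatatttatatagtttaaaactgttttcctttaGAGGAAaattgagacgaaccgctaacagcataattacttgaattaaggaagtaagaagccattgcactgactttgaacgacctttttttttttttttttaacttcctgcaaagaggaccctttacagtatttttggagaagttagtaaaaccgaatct
Cd68, chr11:69666171-69666420, minus strand: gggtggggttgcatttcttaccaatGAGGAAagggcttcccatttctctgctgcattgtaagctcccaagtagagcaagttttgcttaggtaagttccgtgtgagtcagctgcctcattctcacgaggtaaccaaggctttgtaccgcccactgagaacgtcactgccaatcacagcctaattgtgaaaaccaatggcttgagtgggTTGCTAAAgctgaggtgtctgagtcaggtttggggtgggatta
In Cx3cr1 and Lyz2 the capitals mark the RUNX core on the opposite strand, 54 and 66 bases before the start. In Ptprc they mark GAGGAA, 158 bases before the start, and in Cd68 they mark GAGGAA and, nearer the start, the C/EBP motif. Another promoter of Ptprc, not shown, had no match in the 250 bases before its start. A match is a description of the letters and not of binding.

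The other genes of the same cells were taken from fixed lists. Of 24 symbols for genes expressed across white blood cells, 22 entries were above 0, and 20 of these were higher in mutant embryos, with a median log2 ratio of 0.72. Without a filter on level 12 were past 1.5-fold higher and 0 lower, and at a mean of 1 FPKM or more 3 of 7 were. Plek, a substrate of protein kinase C in platelets and leukocytes, was at 1.99 and 0.584 FPKM, with a log2 ratio of 1.61. Coro1a, an actin regulator of leukocytes, was at 5.36 and 2.28 FPKM (1.20), and Laptm5, a lysosomal protein of blood cells, at 2.95 and 1.70 FPKM (0.76). The difference at Ptprc was accompanied by those of other genes of its class.

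Among the 19 macrophage effector and lysosome genes, the result divided by level. The 8 genes above 1 FPKM, which other tissues also make, had a median log2 ratio of -0.03, and 0 of them was past 1.5-fold. Examples were Cst3 (114 and 115 FPKM), Ctsd (64.0 and 66.7 FPKM), Cyba (25.3 and 28.8 FPKM) and Ctsb (26.3 and 22.6 FPKM). Of the 11 genes below 1 FPKM, 10 were higher in mutant embryos and 7 were past 1.5-fold higher. Among these, and chosen after their values were seen, the genes of the complement component C1q were at 0.257 and 0.0146 FPKM (C1qa), 0.471 and 0.0452 FPKM (C1qb) and 0.303 and 0.02 FPKM (C1qc), with log2 ratios of 1.64, 1.98 and 1.75. The subunits of C1q are made by macrophages, and their estimated wildtype reads were 0.7, 2.4 and 1.2 against 14, 27 and 20 in mutant embryos.

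The 14 further myeloid transcription factors had a median log2 ratio of 0.13 over the 13 above 0 and of -0.03 over the 6 that reached a mean of 1 FPKM, and 1 was past 1.5-fold higher. The more abundant ones, such as Zeb2 (7.75 and 8.28 FPKM), Batf3 (2.48 and 2.93 FPKM) and Maf (1.92 and 1.89 FPKM), were near 1:1 and are used by other tissues too. The 1 past 1.5-fold, named after its value was seen, was Tfec, a macrophage factor of the MITF family, at 0.363 and 0.0984 FPKM (log2 ratio 1.22).

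Of 16 ITAM receptors and signalling genes, 11 were higher and 5 lower in mutant embryos, with a median of 0.27, and 3 were past 1.5-fold higher. Over the 4 that reached a mean of 1 FPKM the median was -0.01. The shared kinases and enzymes Plcg2 (3.88 and 5.31 FPKM), Lyn (3.06 and 3.05 FPKM), Syk (1.37 and 1.09 FPKM) and Ptpn6 (1.21 and 1.22 FPKM) were not past 1.5-fold. The 3 past it, named after their values were seen, were Btk, a kinase of B cells and myeloid cells (0.358 and 0.0549 FPKM, log2 ratio 1.56), and the receptors Fcgr3 (0.326 and 0.166 FPKM, 0.68) and Clec7a (0.0837 and 0.0148 FPKM, 0.68). Trem2, the partner of Tyrobp, was at 0.0172 FPKM in mutant embryos and listed at 0 in wildtype embryos.

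Growth factor receptors and ligands of these cells numbered 10, with a median of 0.26, and 3 were past 1.5-fold higher and 0 lower. The mutant value was the higher for 8 and the lower for 2. Csf2rb, the common beta chain of the receptors for GM-CSF, IL-3 and IL-5, was at 1.82 and 1.0 FPKM (0.80), and Csf2ra, the GM-CSF receptor alpha chain, at 2.33 and 1.35 FPKM (0.74). The third, named after its value was seen, was Csf2rb2, at 0.525 and 0.258 FPKM (0.81), a near copy of Csf2rb with which reads may have been shared. Il3ra was at 3.34 and 2.52 FPKM (0.39). Csf3r, named after its value was seen, was 1 of the 2 lower, at 0.0808 and 0.141 FPKM (-0.41), on about 17 and 27 estimated reads.

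With 0.1 FPKM added, the lists that mark particular macrophages had smaller medians. Many of their genes lie below 0.1 FPKM, where the amount added draws ratios towards 0. Over 20 macrophage surface and scavenger receptors above 0, the median log2 ratio was 0.11, with 0 past 1.5-fold higher and 1 lower. The mutant value was the higher for 13 and the lower for 7. Adgre1, which encodes F4/80, was at 0.0367 and 0.0125 FPKM under its older symbol Emr1. Its plain fold was 2.95, on about 7.2 and 2.3 estimated reads, and its log2 ratio with 0.1 FPKM added was 0.28. The 1 past 1.5-fold lower, named after its value was seen, was Lyve1, which lymphatic endothelium also makes, at 0.313 and 0.651 FPKM (-0.86). The most abundant were Axl (6.06 and 4.77 FPKM), Stab1 (4.74 and 5.08 FPKM), Cd36 (2.60 and 3.52 FPKM) and Mertk (1.96 and 1.77 FPKM).

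Of the 9 microglia genes, 1 was past 1.5-fold higher. Their median was 0.10 without a filter on level and -0.19 over the 4 that reached 1 FPKM. Sall1 (17.9 and 23.3 FPKM), Tmem119 (16.7 and 12.6 FPKM), Olfml3 (7.97 and 9.29 FPKM) and Slc2a5 (1.04 and 1.16 FPKM) were at levels far above the 10 genes and are made by other embryonic tissues. The 1 past it, named after its value was seen, was Fcrls, at 0.0986 and 0.0141 FPKM (0.80). Of the 5 genes below 1 FPKM, 4 were higher and 1 was lower in mutant embryos. P2ry12, also named after its value was seen, was at 0.0496 and 0.00675 FPKM, on about 6.5 and 0.8 estimated reads. Its plain fold was 7.35, while its log2 ratio with 0.1 FPKM added was 0.49.

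Markers of other blood lineages were listed to see which else differed. Of 14 symbols for granule genes of granulocytes and monocytes, 13 had an entry, and 9 of these were listed at 0 in both genotypes, among them S100a8, S100a9, Elane and Ltf. Prtn3 and Mpo, which granulocyte and monocyte progenitors switch on first, were at 2.14 and 0.783 FPKM (log2 ratio 1.34) and at 0.842 and 0.171 FPKM (1.79). The summed level of the list was 3.04 and 0.954 FPKM. Of 7 mast cell genes 3 were listed at 0 in both genotypes, with a median of 0.16 for the rest, a summed level of 0.199 and 0.159 FPKM and 0 past 1.5-fold. Of 15 lymphoid and natural killer cell genes 4 were listed at 0 in both, the median of the 11 others was 0.06 and 0 were past 1.5-fold. Most of the summed lymphoid level of 4.8 and 4.62 FPKM was Lck, at 4.21 FPKM in both genotypes, and Cd79b followed at 0.419 and 0.260 FPKM (0.53). The defining T cell genes Cd3e and Cd4 were each below the wildtype level of Cx3cr1.

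The 9 megakaryocyte genes were all past 1.5-fold higher, with a median log2 ratio of 1.03 and a summed level of 32.9 and 12.7 FPKM. The entry of Gp1bb (13.4 and 8.14 FPKM) is shared with its neighbour Sept5, a gene also used by neurons, and without it all 8 remaining genes were past 1.5-fold higher, with a median of 1.31 and a summed level of 19.6 and 4.57 FPKM. The platelet chemokine genes Ppbp (1.87 and 0.151 FPKM) and Pf4 (10.6 and 1.53 FPKM) had log2 ratios of 2.97 and 2.71, and the integrin genes Itgb3 (3.12 and 1.48 FPKM) and Itga2b (1.60 and 0.759 FPKM) had 1.03 and 0.99. Of the 11 erythroid genes with an entry, 8 were past 1.5-fold higher, with a median of 0.73. The embryonic globin genes Hbb-y (4191 and 1787 FPKM), Hba-x (4602 and 2274 FPKM) and Hbb-bh1 (3845 and 1918 FPKM), and the haem synthesis gene Alas2 (29.3 and 14.1 FPKM), had log2 ratios of 1.23, 1.02, 1.0 and 1.05. Set beside the median of the 10 macrophage and immune cell genes (0.99), the erythroid and white blood cell medians were each lower by a difference of 0.27, and the endothelial median by 0.98. The amount added to each value weighs on this, since the 10 genes lie far below most erythroid genes in level. With 1 FPKM added, the median of the 10 genes was 0.29 and the erythroid median 0.70, which turned the direction round, while the endothelial median stayed at 0.01. With none added, the median over the 9 genes with both values above 0 was 1.41 and the erythroid median 0.73. The white blood cell median was 0.16 with 1 FPKM added and 1.38 with none, closer to that of the 10 genes in each case than with 0.1 FPKM. The megakaryocyte median stood above that of the 10 genes in each case, at 1.03, 0.65 and 2.17 with 0.1, 1 and 0 FPKM added.

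The 13 blood progenitor genes had a median of 0.22 and 1 past 1.5-fold higher, and Cd34 (29.7 and 23.5 FPKM), Lmo2 (13.5 and 15.4 FPKM), Kit (7.34 and 9.25 FPKM) and Mecom (8.42 and 6.32 FPKM) were not past it. The 14 endothelial genes had a median of 0.01, with 1 past 1.5-fold, Robo4, at 2.22 and 1.15 FPKM (0.90). Cldn5 (21.2 and 17.8 FPKM), Egfl7 (19.9 and 22 FPKM) and Cdh5 (19.1 and 19.7 FPKM) were near 1:1. The 15 housekeeping genes had a median of 0.06 and 0 past 1.5-fold.

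Genes of other tissues also differed between the pools. Of 7 neuron genes 6 were past 1.5-fold higher, with a median of 1.37 and a summed level of 174 and 70.7 FPKM, and Dcx (5.37 and 1.62 FPKM), Nefm (16.6 and 5.51 FPKM), Tubb3 (99.9 and 37.0 FPKM) and Nefl (15.8 and 6.04 FPKM) led them. Of 10 visceral endoderm genes 8 were past 1.5-fold lower and 2 higher, with a median of -0.86 and a summed level of 34.0 and 42.4 FPKM. Examples were Ttr (2.48 and 7.51 FPKM), Apoa1 (1.67 and 3.13 FPKM) and Rbp4 (6.46 and 11.8 FPKM) on the lower side and Afp (14.7 and 8.10 FPKM) on the higher. Of 7 trophoblast and decidua genes 4 were listed at 0 in both genotypes, and the 1 past 1.5-fold higher was Gjb2 (1.72 and 0.698 FPKM). The summed level was 17.5 and 20.8 FPKM, most of which was Hand1, at 15.8 and 20.1 FPKM (-0.35). Prl8a2 was at 0.0216 FPKM in mutant embryos and listed at 0 in wildtype embryos. The part that differences in embryo stage, in dissection or in yolk sac and blood content may have in the values of the 10 genes was not tested, and none of these can be told apart from genotype with 1 pooled value each.

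**Figure D5:**
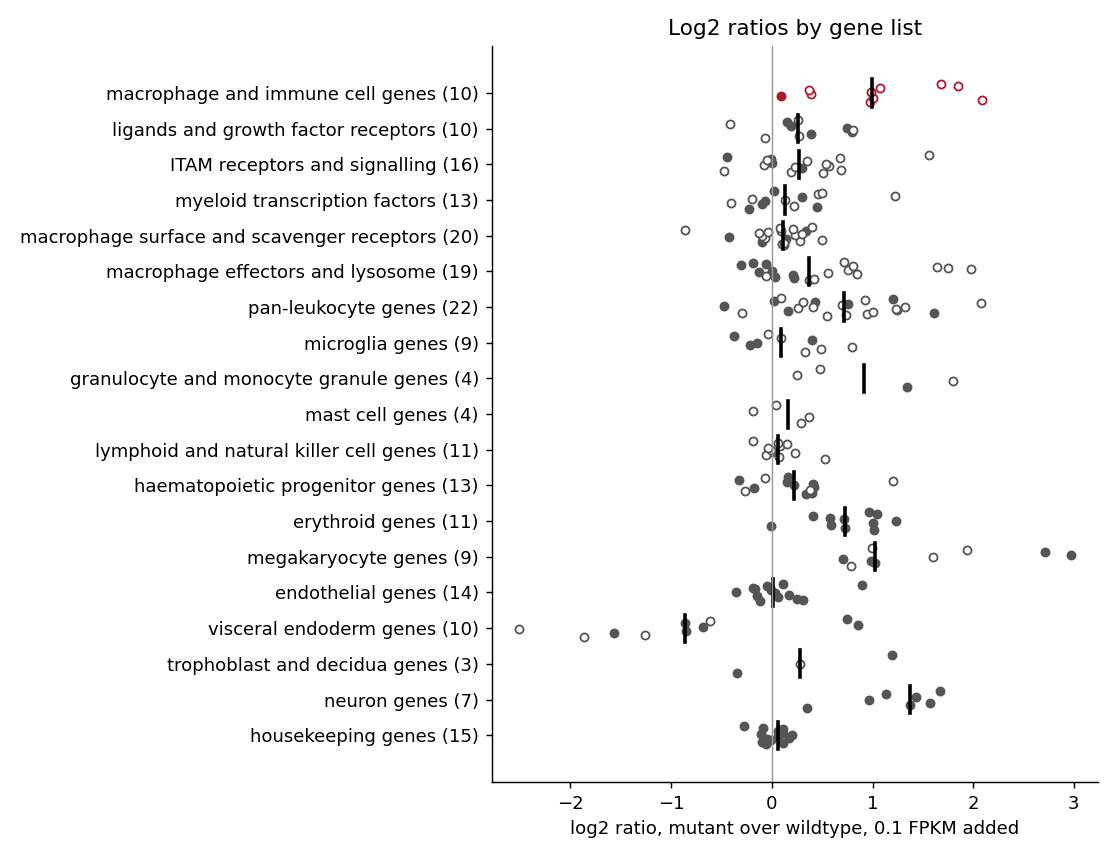
Log2 ratio of mutant to wildtype FPKM with 0.1 FPKM added (horizontal axis) for each entry above 0 in either genotype, by gene list, with the number of entries in brackets and the median as a vertical bar. Filled points have a mean of at least 1 FPKM and open points a lower one. The medians of the macrophage and immune cell genes (0.99), megakaryocyte genes (1.03) and neuron genes (1.37) lie to the right, those of endothelial (0.01) and housekeeping genes (0.06) near 0 and that of visceral endoderm genes (-0.86) to the left.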

How the data were processed

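RNA-seq of 6 whole male E9.5 embryos, 3 per genotype, was used, with groups taken from the genotype in the labels. Per the labels and the study's methods, RNA was prepared with RNeasy kits, and single-end reads of nondirectional libraries, in which a gene and an antisense partner cannot be told apart, were mapped to mm10 with TopHat2 2.0.6 and Bowtie2 2.0.2 and compared with Cufflinks and Cuffdiff 2.0.2. The authors deposited 1 FPKM value per genotype and entry, pooled over embryos, and which pool is which genotype was taken from the study's own account of the table. The table's further columns hold the authors' fold changes, test statistics, p-values and calls of significance, and none of them was used. No read counts or values per embryo were used, so no test was made.

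The members and lists were chosen with earlier results of these data known. Log2 ratios were computed with 0.1 FPKM added, and by the plan an entry was counted past 1.5-fold at a mean of at least 1 FPKM. Because 9 of 10 members lay below that level, counts with no filter and at 0.03 to 1 FPKM were added after seeing the data, as were the comparison of list medians with other amounts added, the megakaryocyte values without a shared entry and the estimates of reads, which used single-transcript genes of 1000 to 6000 bp in GENCODE M21. Lists were matched by symbol and, where absent, by an older RefSeq symbol. Unless a level is named, their counts and medians are without a filter on level. Of all entries above 0, 6.35% were past 1.5-fold higher without a filter, and 15.3% were at a mean of 0.03 to 1 FPKM. From each list up to 4 genes were named, first those that were past 1.5-fold and reached a mean of 1 FPKM, then the most abundant, and Csf1, Il34 and Cx3cl1 were always named. Other list genes were named with their values known, which is stated for only some of them. Some list genes are counted but not reported by name here. Locus starts were counted from 1. Alternatives were a pseudocount of 1 or none, 3 rescalings, other level filters and a fold of 2. The step and ratio calculations were tested on simulated data. Python 3 with numpy, pandas and scipy was used.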

Additional observations from a re-analysis of the deposited data

How the results depend on the processing

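The filter on level decided the counts. With a mean of at least 1 FPKM, Cd68 alone was left, with a median log2 ratio of 0.10 and 0 members past 1.5-fold in either direction. With no filter the median was 0.99 and 7 were past 1.5-fold higher. A mean of at least 5 FPKM left no member and gave no value. With no filter, a choice made after seeing the data, a pseudocount of 1 FPKM lowered the median to 0.29 and the count higher to 2 (Tyrobp and Fcer1g). With no pseudocount Ptprc had no ratio, and the median over the other 9 members was 1.41. The count higher was again 7, with Aif1 in place of Ptprc. The 3 rescalings gave medians of 1.0 to 1.03 and 7 higher, a mean of at least 0.1 FPKM gave 6, and a fold of 2 gave 5. No member's ratio changed sign in 49 recomputed values. A pseudocount of 1 FPKM ended the 1.5-fold call of 5 members, and no pseudocount took Aif1 past it (0.85). List medians near 0 changed sign: with no filter, those of ITAM genes (-0.01 to 0.27), myeloid transcription factors (-0.03 to 0.13), effectors and lysosome (-0.03 to 0.37) and microglia genes (-0.19 to 0.10), and with the same total FPKM, the first 3 of these (0.04, 0.02 and 0.01). Leaving out an embryo was not possible with pooled values. No paired analysis was possible because the table holds 1 pooled value per genotype. Depth limits the lowest genes: Aif1 rested on about 4.9 and 2.5 estimated reads, and Tyrobp and Fcer1g on 2.7 and 3.7 in wildtype embryos.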

Other observations

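The lowest values of the mutant pool fell on 1 series of steps, whereas those of the wildtype pool fell on 3. Within 5% of the mutant step, at 0.0153 RPM, lay 171 values. Within 5% of the wildtype steps, at 0.0131, 0.0169 and 0.0212 RPM, lay 51, 71 and 62 values. A pool of 3 libraries of unequal depth has 3 such steps, and the mutant pool shows 1. Whether the mutant libraries were of equal depth, or entered the calculation in another way, was not tested, and the pooled table cannot separate these.

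Within the 10 genes, the order of the levels differed between the genotypes. In wildtype embryos Cd68 (1.04 FPKM) was followed by Lyz2 (0.199), Mrc1 (0.162), Spi1 (0.150) and Csf1r (0.145), and in mutant embryos Cd68 (1.12 FPKM) was followed by Fcer1g (0.863), Tyrobp (0.697), Lyz2 (0.500) and Spi1 (0.425). The wildtype values after Cd68 lie close together. Fcer1g and Tyrobp rested on about 3.7 (1.1 to 10) and 2.7 (0.6 to 8.8) estimated wildtype reads, so counting error alone leaves their wildtype rank uncertain.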
